A study of Mus musculus with 12 samples.

Results

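Acetylation of lysine 8 on histone H4 (H4K8ac), a mark found at active promoters and enhancers, was examined at 10 genes of the Notch pathway: the receptors Notch1 and Notch2, the ligands Dll1, Dll3 and Jag1, and the Hes and Hey genes Hes1, Hes5, Hes6, Hey1 and Hey2. The members were chosen by gene name, as the peaks that the authors' annotation assigns to these symbols in 6 H4K8ac peak lists. They are 10 of the 23433 genes that own a peak in any list. The cells were oligodendrocyte progenitor cells (OPCs), the dividing glia that give rise to myelin-forming oligodendrocytes, sorted from mouse forebrain. Both ages carried the same genotype, PdgfrαH2BEGFP, in which a green fluorescent histone reports expression of Pdgfra, a gene that OPCs share with some fibroblast-like cells. Neonatal cells came from postnatal day 5 and adult cells from postnatal day 60, with 3 H4K8ac libraries at each age that the labels call biological replicates, and 6 input libraries that are not analysed here. The labels give neither the sex of the animals nor whether animals were pooled.

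Notch receptors are membrane proteins that are cut when a ligand on a neighbouring cell binds them. The freed intracellular part enters the nucleus, joins the DNA-binding protein RBPJ and a Mastermind coactivator, and switches on genes of the Hes and Hey families, which encode transcriptional repressors. In the oligodendrocyte lineage, Jag1 acting on Notch1 is known for holding progenitors back from differentiation, and Hes5 for repressing myelin genes.

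The adult lists held 72278, 72661 and 77002 peaks and the neonatal lists 9097, 31189 and 7353, so every comparison between the ages rests on lists of very different length. The files give no read totals, and the depth behind each list is unknown. Neonatal replicate 2 stood apart from the other neonatal libraries, with 13.7 Mb under peaks against 2.98 and 2.33 Mb. Of 6 OPC markers, 5 or 6 had a promoter peak in every library. Of 6 mature oligodendrocyte markers, 1 had a promoter peak in each neonatal library and 6 in each adult library, and the bases under their peaks summed to between 0.435 and 5.84 kb in neonatal and between 74.2 and 93.9 kb in adult libraries. Peaks on 7 astrocyte and radial glia markers summed to between 0.291 and 5.86 kb in neonatal and between 3.95 and 8.0 kb in adult libraries, with Gja1 without a peak in any adult library and Aqp4 without one in any neonatal library. The ranges for 6 endothelial markers were 0 to 1.87 kb and 4.35 to 6.22 kb (Flt1 and Tek had no adult peak), for 5 mural and fibroblast markers 0 to 0.746 kb and 1.26 to 1.70 kb (4 of 5 had no adult peak), for 5 microglial markers 0 kb and 3.73 to 4.10 kb (all on Cx3cr1 in adult libraries, the other 4 having no peak), and for 6 neuronal markers 0 to 2.22 kb and 7.12 to 10.7 kb. The part of these other cell types in the values that follow was not tested. In sorted populations, more cells with the mark and more of the mark per cell cannot be told apart.

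All 10 genes carried a promoter peak in every adult library. The number with one was 6, 10 and 7 in neonatal replicates 1, 2 and 3. A promoter peak is one the authors' annotation places within 3000 bp of a transcription start, which can differ from the RefSeq start. Within 3000 bp of the RefSeq start, 6, 10 and 7 genes had a peak in the neonatal and 10, 9 and 10 in the adult replicates. The exception was Dll3 in adult replicate 2, whose 1 peak lay 6.78 to 7.03 kb after that start. Over all genes with a peak, a promoter peak was present for 66.2, 64.5 and 66.1% in adult replicates 1, 2 and 3 and for 27.2, 58.5 and 24.0% in the neonatal replicates. Peaks on the 10 genes numbered 12, 52 and 14 in the neonatal libraries, of which 6, 30 and 9 were promoter peaks and 6, 22 and 5 lay elsewhere. The adult libraries had 61, 57 and 56, of which 36, 33 and 30 were promoter peaks and 25, 24 and 26 lay elsewhere. The promoter share was 57.3% ± 7.15 (SD, n = 3) of the neonatal and 56.8% ± 2.88 (SD, n = 3) of the adult peaks on these genes, whereas over whole lists it was 80.5% ± 11.4 and 42.5% ± 1.80. Notch1 alone held 4, 17 and 4 of the neonatal and 20, 19 and 18 of the adult peaks that lay elsewhere. The share on these genes therefore rests largely on Notch1 and does not describe the other members.

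Together the 10 genes had 5.26, 26.5 and 5.47 kb under peaks in neonatal replicates 1 to 3 and 37.6, 38.8 and 45.0 kb in adult replicates 1 to 3. No neonatal library reached the lowest adult one. The geometric mean of the adult values was 4.42 times that of the neonatal ones, against 10.6 times for all bases under peaks. Without neonatal replicate 2 these ratios were 7.52 and 18.3. The 10 genes took up 0.177, 0.193 and 0.235% of the bases under neonatal peaks and 0.0899, 0.0876 and 0.0738% of those under adult peaks, a smaller share in each adult library than in any neonatal one. Notch1 alone held 25.6 to 44.5% of the bases on these genes in neonatal and 46.5 to 49.8% in adult libraries. With Notch1 left out, the ratio for the other genes was 3.61.

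For 6 of the 10 genes, Notch1, Notch2, Dll1, Jag1, Hey1 and Hey2, the covered length in every adult library lay above that in every neonatal library. The same held for 60.0% of all genes, so 6 of 10 is the share found over all genes. For Dll3, Hes1, Hes5 and Hes6 the ages overlapped. In none of the 10 did all neonatal libraries lie above all adult ones, a pattern found in 0.303% of all genes. For each of the 6 separated genes the exact two-sided permutation test over the 20 arrangements of the libraries gave p = 0.1, the smallest value this design allows, and 0.166 after Benjamini-Hochberg adjustment over all genes. No gene in the lists could therefore reach 0.05, adjusted or not (0 genes at either level). Leaving out neonatal replicate 2 raised the number of separated genes from 6 to 9, all but Dll3. Leaving out a library cannot lower this number, and the share of all genes at that setting is not given here.

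**Figure D1:**
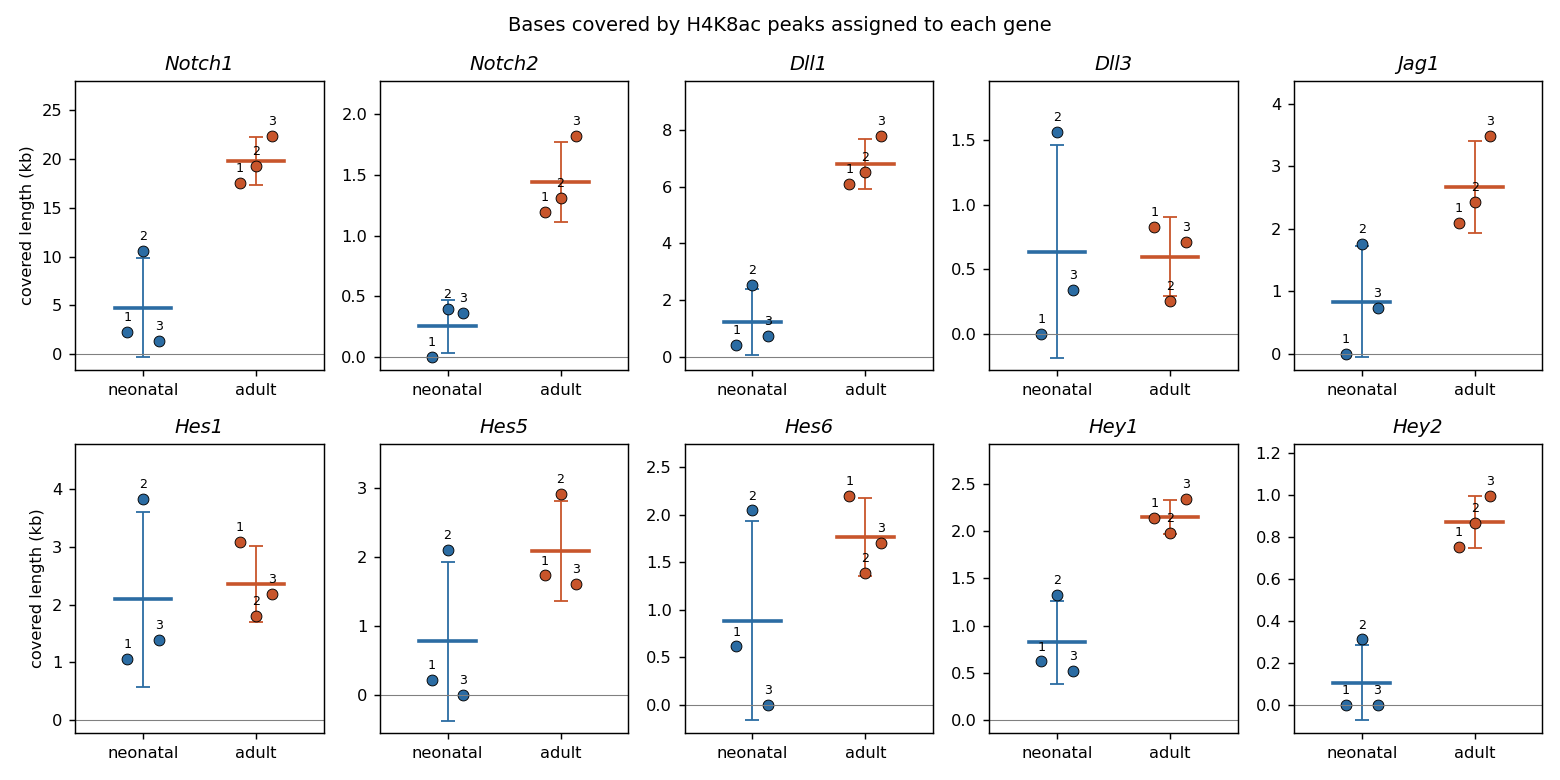
Covered length in kb (vertical axis, a scale of its own for each gene) of the H4K8ac peaks assigned to each of the 10 genes, in 3 neonatal (blue) and 3 adult (orange) libraries. Each numbered point is 1 replicate, horizontal lines are means and error bars 1 SD; the ages do not overlap for Notch1, Notch2, Dll1, Jag1, Hey1 and Hey2, and neonatal replicate 2 is the highest neonatal library for every gene.

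Among the receptors, Notch1, the main receptor of neural progenitors, carried by far the most H4K8ac. Its peaks covered 2.34, 10.6 and 1.40 kb in the neonatal and 17.5, 19.3 and 22.3 kb in the adult libraries. The means were 4.77 ± 5.04 kb and 19.7 ± 2.45 kb (SD, n = 3 each), a difference of 14.9 kb that exceeded the spread within either age. Notch1 ranked at percentile 98.8 of all genes for its mean adult covered length and at 99.9 for its neonatal one. Most of its peaks were outside promoters, with 4, 17 and 4 such peaks in the neonatal and 20, 19 and 18 in the adult libraries. Notch2, the second receptor of the set, carried 1 start-site peak or none in each neonatal library and 1 or 2 peaks in each adult library. Its covered length was 0, 0.397 and 0.361 kb in the neonatal and 1.20, 1.31 and 1.82 kb in the adult libraries, on a gene of 136.83 kb. Counted by position, from 10 kb before to 10 kb after Notch2, it was 0, 1.00 and 0.361 kb and 1.93, 2.25 and 3.54 kb. The count by position includes peaks assigned to other genes. The authors' deposited table lists a site inside Notch2 assigned to Gm42819, with a log2 fold change of 2.64.

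Merging the 6 lists where peaks shared at least 1 bp gave 42 regions on Notch1 (chr2:26457902-26503822, minus strand, GRCm38). In 3 of these every library had a peak. They were the start site, from 0.242 kb before to 2.04 kb after it, and 2 neighbouring regions inside the gene, at 14.7 to 17.8 kb and 18.0 to 18.7 kb after the start. The intragenic region at 14.7 to 17.8 kb was covered over 1.6, 2.55 and 0.671 kb in the neonatal and 2.55, 3.01 and 3.02 kb in the adult libraries, so neonatal replicate 2 and adult replicate 1 were nearly equal and the other neonatal libraries lay below them. At the start site the covered length was 0.151, 1.62 and 0.305 kb in the neonatal and 2.28, 2.10 and 2.06 kb in the adult libraries.

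A further 7 regions of Notch1 had a peak in all 3 adult and in 0 neonatal libraries. A cluster of 3 of them lay between 16.4 and 11.5 kb before the RefSeq start, where the authors' annotation places the promoter of an alternative Notch1 transcript. From 11 to 17 kb before the start, no neonatal library had a peak, while the adult libraries had 5, 4 and 6 peaks covering 2.21, 2.52 and 3.14 kb. Neonatal replicate 2, with its 20 Notch1 peaks, also had none there. The widest region of the cluster, chr2:26518239-26520193, covered 1.33, 1.78 and 1.96 kb in the adult libraries. Farther upstream, at 32.9 to 28.9 kb before the start, peaks were present at both ages, so the adult-only stretch lay between positions that the ages shared. Beyond 22 kb upstream, peaks covered 0.367, 2.49 and 0.170 kb in the neonatal and 3.03, 4.03 and 4.37 kb in the adult libraries.

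**Figure D2:**
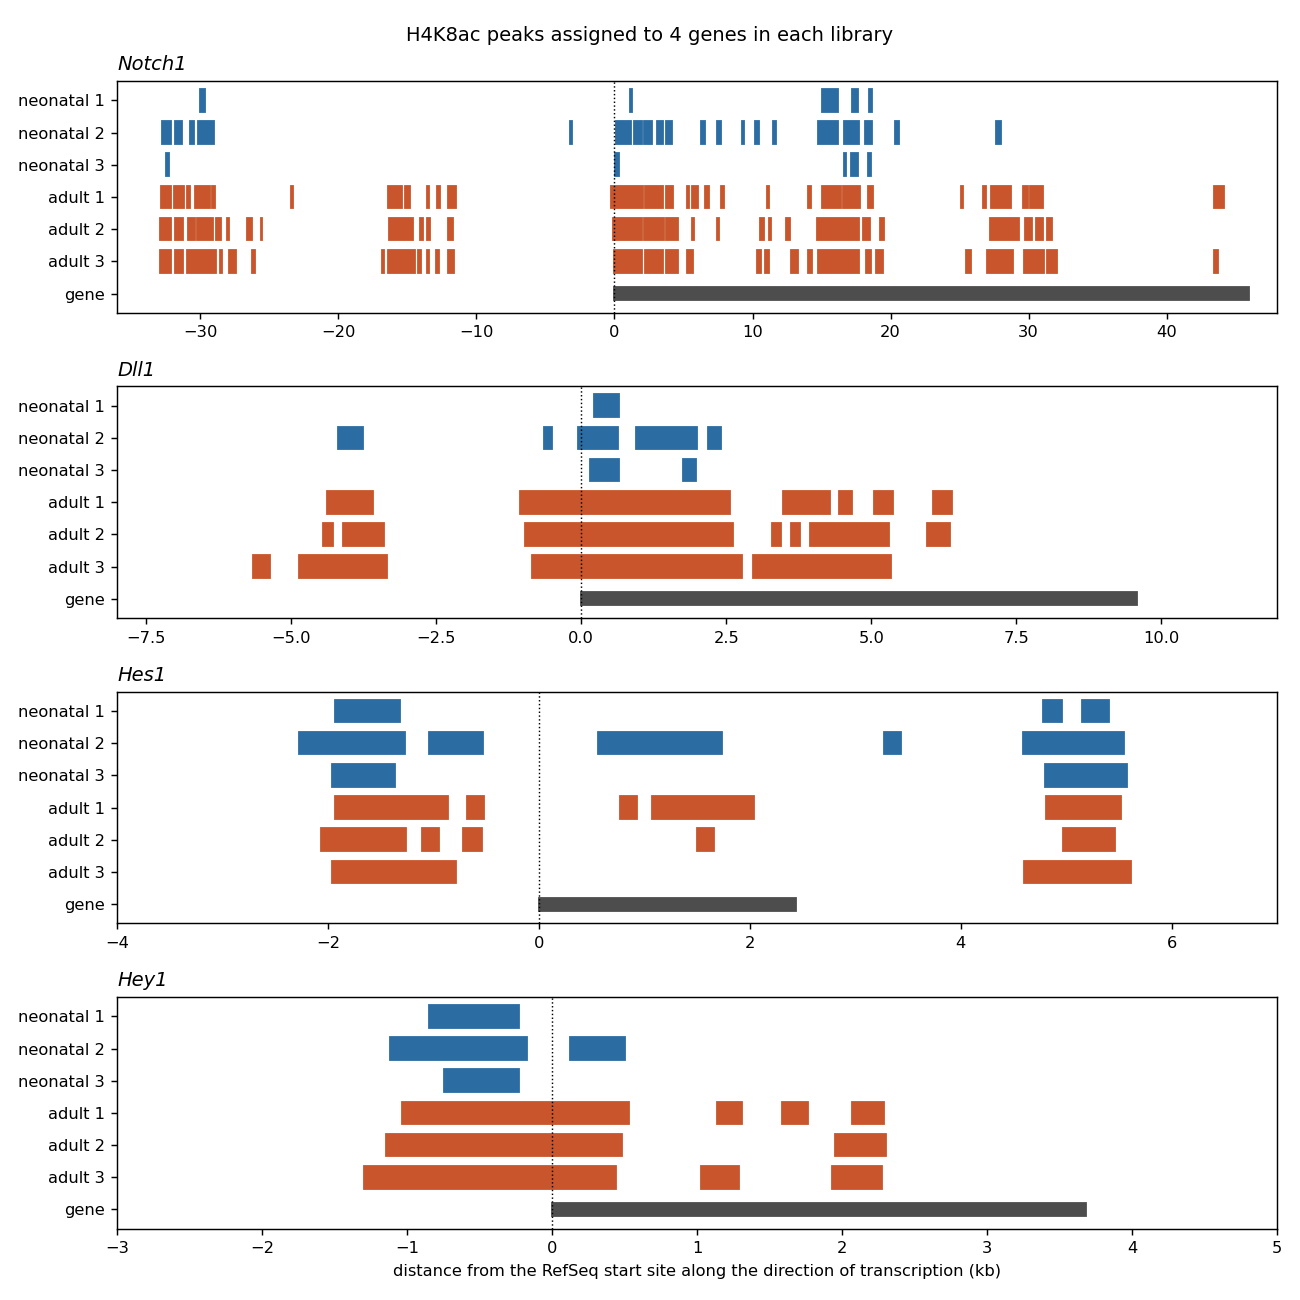
Peaks assigned to Notch1, Dll1, Hes1 and Hey1 in each library, drawn as bars (blue neonatal, orange adult) against the distance from the RefSeq start site in kb along the direction of transcription; the grey bar is the gene and the dotted line its start. Adult-only stretches are visible between 16.4 and 11.5 kb before Notch1 and from 2.95 to 5.38 kb inside Dll1, whereas both Hes1 flanks, at 2.28 to 0.518 kb before the start and 4.59 to 5.61 kb after it, carry peaks in all 6 libraries.

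Over the 10 genes the merging gave 83 regions. Of these, 10 had a peak in 3 adult and 0 neonatal libraries (7 on Notch1 and 1 each on Dll1, Hey1 and Hey2), or 12.05%, against 20.4% of all 98027 regions. Peaks of every library met in 7 of the 83 (3 on Notch1, 2 on Hes1 and 1 each on Dll1 and Hey1), or 8.43%, against 4.74% of all regions. The reverse, peaks in 3 neonatal and 0 adult libraries, was found at none of the 83 and at 39 of all 98027 regions.

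Among the ligands, Dll1, which activates Notch on neighbouring cells, had the larger span of H4K8ac. Its peaks covered 0.424, 2.55 and 0.730 kb in the neonatal and 6.11, 6.52 and 7.78 kb in the adult libraries, with means of 1.23 ± 1.15 kb and 6.80 ± 0.868 kb (SD, n = 3 each). At the start site (chr17:15374169-15377994) each adult library had a continuous peak that, from 1.06 kb before to at most 2.76 kb after the RefSeq start, covered 3.63, 3.58 and 3.61 kb. The neonatal libraries covered 0.424, 2.13 and 0.730 kb of the same region in narrower peaks. Further inside the gene, from 2.95 to 5.38 kb after the start (chr17:15371550-15373978), the adult libraries covered 1.37, 1.66 and 2.38 kb and no neonatal library had a peak. Dll1 thus combined a start site marked at both ages with an interior marked in adult libraries only.

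Dll3, a ligand that hampers Notch signalling within the cell that makes it, had overlapping values at the 2 ages. Its mean covered length stood at percentile 88.5 of all genes in neonatal and 38.8 in adult libraries. The percentile was also lower in adult libraries for Notch1, Dll1, Jag1, Hes1, Hes5, Hes6 and Hey1, and higher for Notch2 and Hey2. Dll3 covered 0, 1.57 and 0.338 kb in the neonatal and 0.827, 0.253 and 0.713 kb in the adult libraries. The exact two-sided permutation test gave p = 0.9, and the neonatal mean of Dll3 rested largely on replicate 2. A region 0.786 to 0.168 kb before its start was covered in neonatal replicate 2 only, over 0.619 kb. Jag1, the ligand linked to delayed oligodendrocyte maturation, covered 0, 1.77 and 0.740 kb in the neonatal and 2.09, 2.43 and 3.49 kb in the adult libraries. The region at its start was covered over 0, 0.816 and 0.740 kb in the neonatal and 1.09, 1.33 and 1.82 kb in the adult libraries.

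Hes1, a repressor that keeps neural progenitors undifferentiated, had overlapping values at the 2 ages. Its peaks covered 1.05, 3.83 and 1.38 kb in the neonatal and 3.08, 1.81 and 2.18 kb in the adult libraries, with means of 2.09 ± 1.52 kb and 2.36 ± 0.656 kb (SD, n = 3 each). The highest value of the 6 belonged to a neonatal library, and the exact two-sided permutation test gave p = 0.7. The adult over neonatal ratio of the geometric means was 1.3, at percentile 5.17 among the 4332 genes with a peak in all 6 libraries, whose median ratio was 3.45. For comparison, the ratio was 6.02 for Notch1, 7.32 for Dll1 and 2.86 for Hey1, at percentiles 74.6, 79.7 and 37.7. The adult minus neonatal difference was 0.270 kb with all libraries, 1.14 kb without neonatal replicate 2, in which case every adult library lay above both neonatal ones, and -0.250, -0.0837 and -0.0932 kb without neonatal replicate 1, neonatal replicate 3 and adult replicate 1.

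The 2 Hes1 regions with a peak in all 6 libraries lay on either side of the gene (chr16:30065357-30067796, plus strand). The region from 2.28 to 0.518 kb before the RefSeq start (chr16:30063077-30064839) was covered over 0.622, 1.53 and 0.598 kb in the neonatal and 1.24, 1.14 and 1.18 kb in the adult libraries. A second region, 4.59 to 5.61 kb after the start and so beyond the end of this 2.44 kb gene (chr16:30069946-30070966), is classed as distal intergenic. It was covered over 0.426, 0.958 and 0.783 kb in the neonatal and 0.708, 0.501 and 1.01 kb in the adult libraries, with full overlap of the ages. Another region, inside the gene from 0.558 to 2.04 kb after the start, had peaks in 3 libraries, over 1.18 kb in neonatal replicate 2, 1.14 kb in adult replicate 1 and 0.167 kb in adult replicate 2.

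Hes5, a Notch target that represses myelin genes, had 0.217, 2.10 and 0 kb under its peaks in the neonatal and 1.73, 2.92 and 1.62 kb in the adult libraries. Neonatal replicate 2 lay within the adult range, and the exact two-sided permutation test gave p = 0.3. When bases were counted by position, from 10 kb before to 10 kb after the gene, the ages no longer overlapped (means of 0.716 ± 1.06 kb and 3.36 ± 0.464 kb, SD, n = 3 each), with 0, 0.427 and 0 kb in the neonatal and 1.17, 1.03 and 1.72 kb in the adult libraries from peaks that the authors assigned to the neighbouring gene Pank4. A further 0.15 kb in adult replicate 1 and 1.16 kb in adult replicate 3 came from peaks assigned to other genes. Counting by position also left out Hes5 peaks farther upstream, of 0, 0.597 and 0 kb in the neonatal and 0.207, 0.204 and 0.999 kb in the adult libraries. Hes6, which acts against Hes1 and favours differentiation of neural progenitors, covered 0.616, 2.05 and 0 kb in the neonatal and 2.20, 1.39 and 1.71 kb in the adult libraries (exact two-sided permutation p = 0.3). All of its peaks fell within 1 merged region, from 0.647 kb before to 1.78 kb after the start.

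The Hey genes, relatives of Hes that are known as Notch targets in many tissues, separated the ages with smaller amounts. Hey1 covered 0.618, 1.32 and 0.520 kb in the neonatal and 2.14, 1.98 and 2.35 kb in the adult libraries. No neonatal peak crossed the start site, whereas in all 3 adult libraries 1 peak ran across it, within a region from 1.3 kb before to 0.528 kb after the start. Hey2 covered 0, 0.310 and 0 kb in the neonatal and 0.750, 0.864 and 0.994 kb in the adult libraries. Its second region, 0.572 to 0.224 kb before the start, had a peak in the 3 adult libraries and in 0 neonatal ones.

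To set genes of unequal length side by side, peak coverage was also taken as a percentage of a window reaching from 10 kb before to 10 kb after each gene. In adult libraries the order of the means was Dll1 23% ± 2.94, Notch1 20.6% ± 2.14, Hes5 15.5% ± 2.14, Hes1 10.5% ± 2.93, Hey1 9.10% ± 0.772, Hes6 7.82% ± 1.80, Jag1 4.85% ± 1.33, Dll3 3.18% ± 1.05, Hey2 2.86% ± 0.401 and Notch2 1.64% ± 0.542 (SD, n = 3 each). Neighbours in this order overlapped over the libraries, except that Notch1 lay above Hes5 and Hey2 above Notch2. In neonatal libraries Hes1 was first, with 4.67, 17.1 and 6.15% of its window covered and a mean of 9.30% ± 6.78. It had the highest percentage of the 10 genes in each of the 3 neonatal libraries and the fourth highest mean in adult libraries. Next came Notch1 with 5.71% ± 5.70 and Dll1 with 4.17% ± 3.89, which overlapped each other and Hes1.

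Since the adult lists were longer, the values were also taken from the same number of strongest peaks in each list, the 7353 with the lowest q-values, which is the length of the shortest list. This limit was far stricter in the adult lists, where the largest q-values kept were 1.61e-26, 7.16e-26 and 2.62e-34, than in the neonatal ones, where they were 0.00033, 8.93e-16 and 0.0427. The values therefore describe ranks within each list, and a peak that drops out of an adult list shows no loss of the mark. Hes1 was then the one gene of the 10 that separated the ages with neonatal above adult. It kept peaks over 1.05, 1.97 and 1.38 kb in the neonatal libraries and none in any adult library, at both flanking regions. Such a pattern was found in 4.64% of the 10859 genes that kept a peak. No gene of the 10 had all adult above all neonatal libraries, against 34.4% of those genes. Hes5 and Hey2, counted in the 10, kept no peak and could not separate the ages. Without neonatal replicate 2 there was 1 gene each way, Hes6 with adult above and Hes1 with neonatal above. Hes6 separated narrowly, with 0.641 kb in adult replicate 2 against 0.616 kb in neonatal replicate 1. The share of all genes at this setting is not given here.

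With equal numbers of peaks, Dll3 and Jag1 also kept peaks in 2 neonatal libraries each and in no adult library. Notch1 kept 1.82, 2.97 and 1.40 kb in the neonatal libraries and 0, 2.10 and 0 kb in the adult ones, and its region at 16.6 to 17.7 kb after the start was kept in 3 neonatal and 0 adult libraries. In contrast, Hes6 kept its peak in all 3 adult libraries, over 2.20, 0.641 and 1.05 kb, and in 2 neonatal libraries, over 0.616 and 0.847 kb. Hes5 and Hey2 kept no peak in any library. The whole set covered 3.49, 9.16 and 5.47 kb in the neonatal and 3.04, 9.26 and 2.79 kb in the adult libraries, with full overlap and a ratio of 0.766, against 4.0 for all bases kept. The number of genes with a promoter peak was 2, 7 and 7 in the neonatal and 2, 5 and 2 in the adult libraries. The share of all genes with one under this limit is not given here, so these counts have no background.

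**Figure D3:**
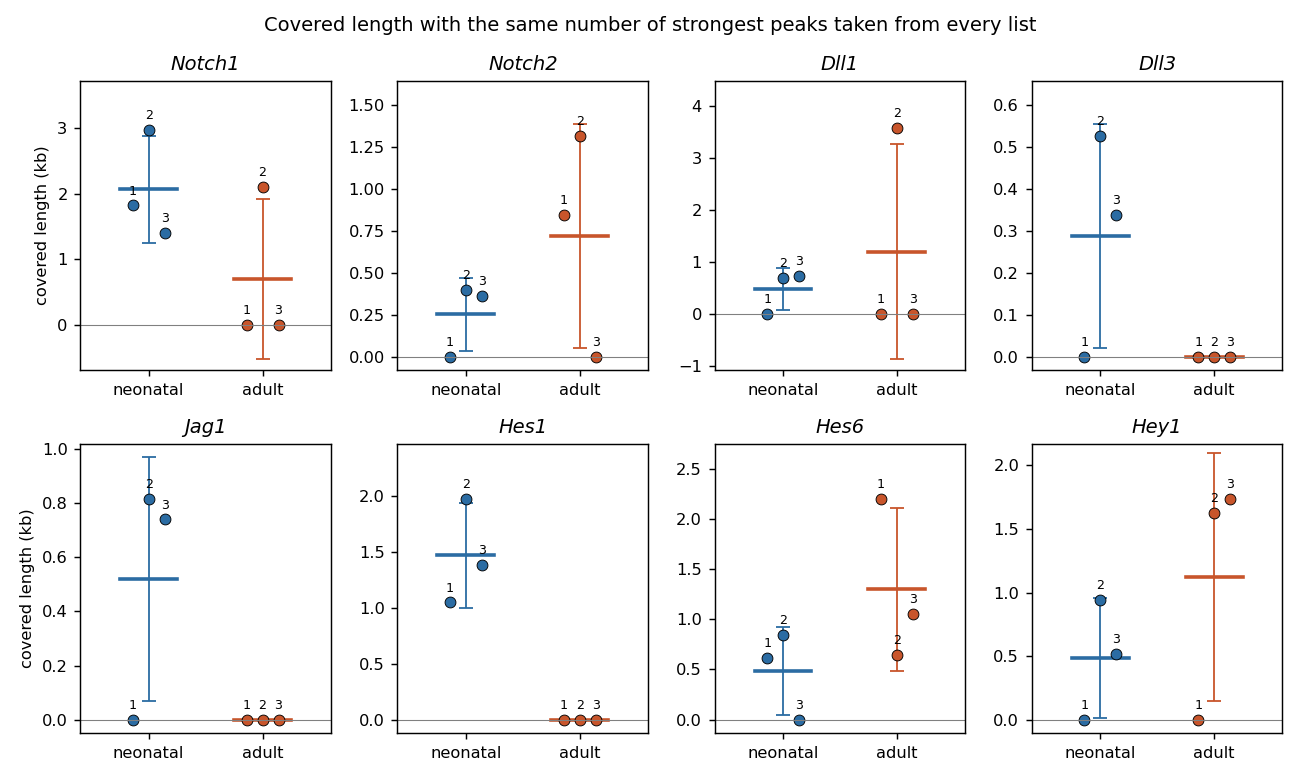
Covered length in kb (vertical axis, a scale of its own for each gene) when the 7353 strongest peaks of every list are used, for the 8 genes that kept a peak; numbered points are replicates, horizontal lines means and error bars 1 SD. Hes1 has peaks in the 3 neonatal libraries (1.05, 1.97 and 1.38 kb) and none in the adult ones, while Hes6 has peaks in the 3 adult libraries and 2 neonatal ones.

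The authors' deposited table of differential sites lists 43888 sites with an adjusted p-value under 0.05, and a positive log2 fold change there is higher in adult cells. It gives values per site and none per library. Of those in the authors' deposited table, 23 sites belonged to these genes, 13 to Notch1, 4 to Dll1, 2 to Hey1 and 1 each to Notch2, Jag1, Hes5 and Hes6. All 23 were higher in adult cells, as were 43634 of all 43888 listed sites, with 254 lower. The shared direction is therefore that of nearly the whole table. Thus 7 of the 10 genes had a site higher in adult cells, against 65.1% of all genes, and none had a site lower in adult cells, against 0.977%. The table holds no site assigned to Dll3, Hes1 or Hey2, and no site within 10 kb of Hes1 or Hey2, so a site there either missed the threshold or was not tested.

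In the authors' deposited table the 23 sites had a median log2 fold change of 1.80, against 2.41 for all listed sites, and 5 of the 23 lay above that median. The 17 promoter sites had a median of 1.87, close to the 1.86 of all listed promoter sites, and the 6 others a median of 1.54 against 2.85. The largest value, 4.29 (adjusted p = 5.79e-09 in the authors' deposited table), was at chr17:15372182-15372581, 4.55 kb inside Dll1, in the region without neonatal peaks. The smallest, 0.891 (adjusted p = 0.0349 in the authors' deposited table), was 0.476 kb after the start of the same gene. These 2 Dll1 sites stood at percentiles 87.99 and 0.684 of all listed sites. The start site thus fell near the low end of the table and the interior site well above its median.

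Notch1 showed a similar spread in the authors' deposited table. Its upstream sites centred 15.5 and 14.05 kb before the start had log2 fold changes of 3.58 (adjusted p = 6.03e-07 in the authors' deposited table) and 3.91 (adjusted p = 0.000525). Sites 13.5 and 11.9 kb before the start had 2.39 and 1.80 in the authors' deposited table. By contrast, the site 1.05 kb after the start had 1.41, the site in the shared intragenic region 1.46 and the far upstream site at 29.5 kb before the start 1.18. At Hey1, the site at 2.18 kb inside the gene had 2.30 and the one 0.393 kb before its start 1.3 in the same table.

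**Figure D4:**
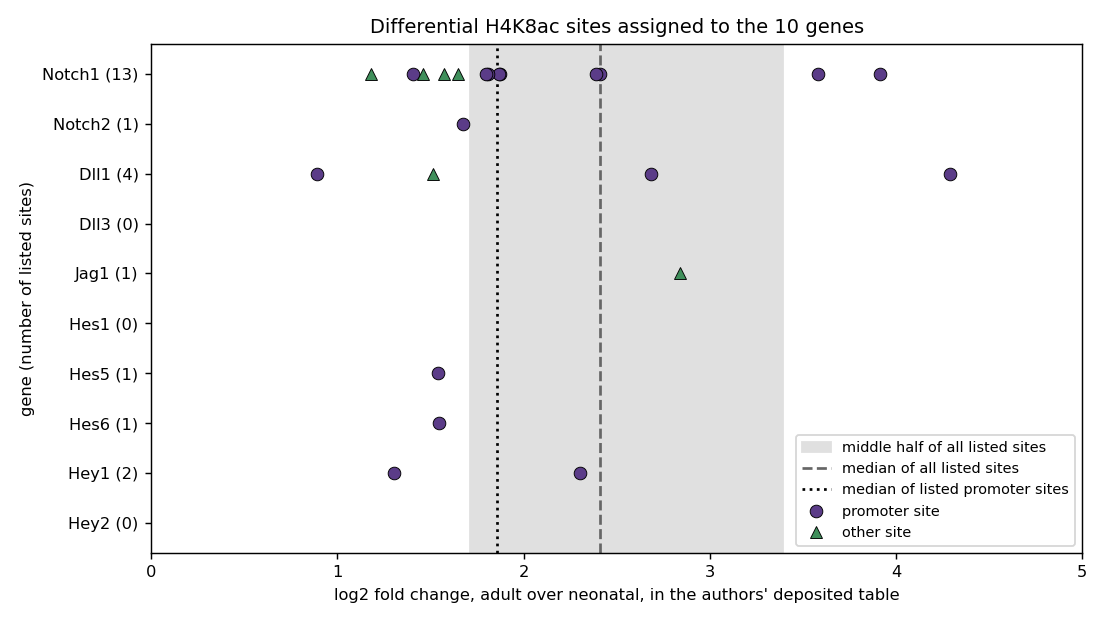
Log2 fold change, adult over neonatal, in the authors' deposited table (horizontal axis) for each listed site of the 10 genes (rows, with the number of sites); circles are promoter sites and triangles other sites. The dashed line is the median of all listed sites (2.41) and the dotted line that of listed promoter sites (1.86). The grey band spans the quartiles of all listed sites. All 23 sites lie above 0, from 0.891 to 4.29, and 43634 of all 43888 listed sites also lie above 0. Dll3, Hes1 and Hey2 have none.

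The RefSeq promoter table (GRCm38.p6, 250 bases before to 50 after a start) held 10 windows for 8 of the genes and none for Hes1 and Hey1. Neonatal replicates 1 and 3 had a peak in 0 of the 10 windows, while 4 and 5 of the 8 genes with a window had a promoter peak there. Neonatal replicate 2 had a peak in 8 windows and the adult libraries in 8, 9 and 9. Over all windows of the table, 9.69, 30.4 and 8.16% had a neonatal peak and 38.3, 36.7 and 39.2% an adult one. Each window was searched on both strands for the core bound by RBPJ (TGGGAA) and for 3 sites bound by Hes and Hey proteins or their relatives, the class B E-box (CACGTG), the class C site (CACGCG) and the N-box (CACNAG). No 2 of these can match the same 6 bases on 1 strand.

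Hes5 and Hey2 were the genes whose window held the RBPJ core, with 2 matches each, and 25.4% of all 32619 windows held it. In Hes5 the matches began 226 and 82 bases before the start that its window belongs to, and in Hey2 207 and 3 bases before that of its window. The whole Hes5 window lies after the RefSeq start used above for this gene (chr4:154960626), so its matches lie after that start too. Both windows are shown with the core, or its reverse complement, in capitals, 5′ to 3′ on the strand of the gene. Hes5 (chr4:154960673-154960972, plus strand) was covered over 0, 19 and 0 bp in the neonatal and 300, 300 and 264 bp in the adult libraries. Hey2 (chr10:30842734-30843033, minus strand) was covered over 0, 35 and 0 bp in the neonatal and 109, 28 and 50 bp in the adult libraries.
Hes5: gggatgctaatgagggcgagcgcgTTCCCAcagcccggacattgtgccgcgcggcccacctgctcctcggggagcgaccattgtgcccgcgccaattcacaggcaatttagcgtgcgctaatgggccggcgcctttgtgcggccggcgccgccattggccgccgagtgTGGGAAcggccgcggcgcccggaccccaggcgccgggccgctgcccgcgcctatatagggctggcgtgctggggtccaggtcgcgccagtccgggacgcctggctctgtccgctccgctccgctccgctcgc
Hey2: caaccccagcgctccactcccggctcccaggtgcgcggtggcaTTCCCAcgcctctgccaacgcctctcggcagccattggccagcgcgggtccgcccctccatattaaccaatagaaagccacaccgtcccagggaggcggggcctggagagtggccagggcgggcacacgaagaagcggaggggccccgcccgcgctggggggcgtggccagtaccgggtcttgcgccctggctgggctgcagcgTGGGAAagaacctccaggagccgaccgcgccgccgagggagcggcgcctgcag

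A window of each Delta-like ligand is shown because 1 was covered in full and the other not at all in the adult libraries, and neither holds the RBPJ core. The window at the upstream start of Dll1 (chr17:15376883-15377182, minus strand) was covered over 0, 100 and 0 bp in the neonatal and over all of its 300 bp in each adult library. The Dll3 window (chr7:28301736-28302035, minus strand) was covered over 0, 96 and 0 bp in the neonatal and 0, 0 and 0 bp in the adult libraries, the one window of the 10 without an adult peak. Its GC content was 52.0%, the lowest of the 10, against 56.3% in Dll1, 72.7% in Hes5 and 72.0% in Hey2. The class C site, in capitals in neither, was found in windows of Dll1, Notch2 and Jag1 (9.33% of all windows hold it). The N-box was found in windows of Notch1, Notch2, Dll1 and Hes6 (42.5% of all windows), and the class B E-box in none of the 10 (7.20% of all windows).
Dll1: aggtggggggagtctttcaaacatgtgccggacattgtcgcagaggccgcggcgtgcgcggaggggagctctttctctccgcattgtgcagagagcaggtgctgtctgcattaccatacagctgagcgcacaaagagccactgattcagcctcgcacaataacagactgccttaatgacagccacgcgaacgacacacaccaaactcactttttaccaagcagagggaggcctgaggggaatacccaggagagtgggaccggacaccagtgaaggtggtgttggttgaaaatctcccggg
Dll3: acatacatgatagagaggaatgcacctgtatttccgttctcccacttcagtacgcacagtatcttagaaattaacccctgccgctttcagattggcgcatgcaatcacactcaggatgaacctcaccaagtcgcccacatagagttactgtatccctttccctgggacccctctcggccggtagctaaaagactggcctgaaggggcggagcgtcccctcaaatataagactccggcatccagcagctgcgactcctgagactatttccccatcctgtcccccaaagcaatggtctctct

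The other genes of the pathway were taken from a list of 39 genes by role, of which 38 had a peak in any list. Of the 39, 28 (71.8%) had all adult above all neonatal libraries in covered length, against 60.0% of all genes, and 0 the reverse. The median difference, adult minus neonatal, was 1.35 kb, against 1.253 kb for the 10 genes and 0.661 kb for all genes. By role, the ages separated for 6 of 6 genes of the nuclear complex, 8 of 9 of receptor processing, 8 of 9 of endocytosis and turnover, 2 of 3 of glycosylation, 2 of 5 further ligands, 2 of 5 further targets and Hes genes, and 0 of 2 further receptors. By the authors' deposited table, 33 of the 39 had a site higher in adult cells, against 65.1% of all genes, and 0 a lower one, against 0.977%. With equal numbers of peaks, 13 of the 39 had all adult above all neonatal libraries and 1 the reverse. Over all 23433 genes with a peak in any list, these counts were 3734 and 504. They make up 34.4 and 4.64% of the 10859 genes that kept a peak. Those percentages have another base than the 39, which include genes without a kept peak, such as Hes2.

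Large differences belonged to Spen and Nrarp. Spen, an RBPJ corepressor, covered 0.470, 1.97 and 0.407 kb in the neonatal and 5.93, 6.36 and 10.7 kb in the adult libraries, a difference of 6.70 kb. Nrarp, a target that dampens Notch signalling, covered 1.33, 5.50 and 0.164 kb in the neonatal and 8.23, 8.05 and 8.85 kb in the adult libraries, a difference of 6.04 kb. The ages did not overlap for either gene (exact two-sided permutation p = 0.1, Benjamini-Hochberg adjusted p = 0.166 for each).

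At the other end were the receptor Notch3, the ligand Jag2 and the glycosyltransferase Rfng, with differences of -0.468, -0.226 and -0.198 kb. Notch3, known from mural cells, covered 0.205, 1.62 and 0 kb in the neonatal and 0.194, 0 and 0.225 kb in the adult libraries. Jag2 covered 0.201, 1.12 and 0 kb and 0.646, 0 and 0 kb. Rfng, which modifies Notch receptors in the Golgi, covered 0.351, 0 and 0.244 kb in the neonatal libraries and had no adult peak. The ages overlapped for all 3, with exact two-sided permutation p-values of 0.7, 0.7 and 0.4. Dll4, an endothelial ligand, had no promoter peak in any library, and Hes2 had no peak at all.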

How the data were processed

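H4K8ac ChIP-seq peak lists of 3 neonatal and 3 adult OPC libraries were used, 1 list per library, together with the authors' table of differential sites. Per the submitters' processing notes, the tools were Trim Galore, Bowtie2 2.4.5, SAMtools, deepTools, MACS2, DiffBind and ChIPseeker, with build GRCm38. Whether input entered peak calling, and how reads were normalised, is not given in the sources used here. Per the file headers, the deposited lists give for each peak a score, a fold enrichment (a linear ratio), −log10 of the p-value and q-value, the nearest gene and the class of position. These are the authors' own values and served only to rank or filter peaks within a list. For each site, the authors' deposited table holds its log2 fold change with the p-value before and after adjustment. It has no header, and positive values were read as higher in adult cells because such sites overlap adult peaks. Start positions in the lists count from 0 and are printed counted from 1.

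Covered length was the bases under the peaks that the authors assigned to a gene, and its precision is limited by the unknown read depth and by 3 libraries at each age. Ages were compared by an exact two-sided permutation test over 20 arrangements for all 23433 genes, with Benjamini-Hochberg adjustment. A site or region took the gene of the peak that shares bases with it. Distances are from the RefSeq (GRCm38.p6) start of the gene, and a promoter window belongs to a start that can differ from it. The code was tested on simulated data (Python 3.11.15, numpy 2.4.6, pandas 2.3.3, scipy 1.17.1, matplotlib 3.10.9). Alternatives were equal numbers of peaks, a q-value limit of 0.005, assignment by position, a promoter distance of 1000 bp, each library left out, a replicate block, 50% cover of a region and an adjusted p-value limit of 0.005 for the authors' sites.

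All 10 genes were named with their values. Of the other pathway genes, the 3 largest and 3 smallest differences, any with a negative promoter site (there was none) and those without a promoter peak were named, except for 1 item that is not reported here. Promoter windows could be shown for up to 6 genes with a promoter peak in all libraries of an age, and the 4 shown were chosen after their values were seen. The members, lists and rules were chosen with earlier results of these data known. Input libraries were not analysed here.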

Additional observations from a re-analysis of the deposited data

How the results depend on the processing

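The number of peaks per list was the choice that mattered most. With the same number of strongest peaks per list, a limit far stricter in the adult lists, the ratio of total covered length went from 4.42 to 0.766, the adult minus neonatal number of genes with a promoter peak from 2.33 to -2.33, the genes with adult above neonatal from 6 to 0 and those with neonatal above adult from 0 to 1 (Hes1). For the promoter number, the shift over all genes is not given here. Adult-only regions then went from 10 to 0 and regions found in all 6 libraries from 7 to 0 (over all regions these were 5.83 and 19.0%, from 20.4 and 4.74%), and the differences of Notch1, Jag1 and Hes1 became -1.36, -0.519 and -1.47 kb and those of Hes5 and Hey2 0. With neonatal replicate 2 also left out, an alternative added after the data were seen, these were a ratio of 0.980, a promoter difference of -1.5 and 1 gene each way. For this alternative too, the share of all genes is not given here. Requiring 50% cover of a region left 13 adult-only regions, or 15.7% against 17.2% of all regions. It left 0 in all 6 libraries, against 0.153% of all regions. Leaving out each library in turn gave 6 to 9 separated genes, promoter differences of 1.5 to 3.5 and ratios of 3.35 to 7.52. The highest values came without neonatal replicate 2. The share of all genes separated at these settings is not given here. The Hes1 difference of 0.270 kb ranged from -0.250 to 1.14 kb when 1 library was left out, and was -0.250, -0.0837 and -0.0932 kb without neonatal replicate 1, neonatal replicate 3 and adult replicate 1. The Dll3 difference of -0.0373 kb was 0.120 kb by position, and leaving out 1 library each gave -0.355 to 0.429 kb, with 0.429 and 0.135 kb without neonatal replicate 2 and adult replicate 2. Of 100 alternatives for single genes, 89 kept direction and side of the threshold, which no gene could pass.

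With the replicate block, 7 genes had adult above neonatal in all 3 pairs of equal number and 0 the reverse (smallest possible p 0.25). The matching share of all genes is not given here. Deviations of equally numbered libraries correlated over genes at -0.0586, 0.0149 and 0.0812, so the numbers were not taken to pair the samples. An adjusted p-value limit of 0.005 left 16 sites of the authors' table, and assignment by position gave 22, all higher in adult. Of all 43888 listed sites, 43634 were higher in adult. Unknown read depth limits what a missing peak shows, and the cause of these shifts was not tested.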
